A study of Mus musculus with 12 samples.

Results

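The mRNAs of 9 genes that set how long cytokine transcripts last were followed in mouse bone marrow-derived dendritic cells (BMDCs) treated with lipopolysaccharide (LPS), with and without the NF-κB inhibitor JSH-23. The genes were picked by symbol: Zfp36, Zfp36l1, Zfp36l2, Zc3h12a, Zc3h12c, Rc3h1, Rc3h2, Elavl1 and Cnot1. All 9 were found among the 55335 genes listed, and all 9 passed the filter on low counts that left 14357 genes for testing. BMDCs were grown for 6 days from bone marrow of CreER mice on the C57BL/6 background, with GM-CSF and a change of medium every 2 days. According to the methods of the study, WT denotes CreER;CTCF wt/wt cells from mice of both sexes aged 8 to 12 weeks, the Cre recombinase is driven from the Rosa26 locus, and CD11c+ cells were selected with beads. All 12 libraries thus came from cells that carry CreER and an intact Ctcf gene. Whether they had received the 4-OH-tamoxifen that activates the recombinase is not given in the labels. WT cells were untreated and WTL cells received 100 ng/ml of LPS, a bacterial cell wall component, for 3 h. WT + JSH23 and WTL + JSH23 cells were given 100 µM of JSH-23 for 3 h. JSH-23 is a small molecule that keeps the NF-κB subunit RelA out of the nucleus. WTL + JSH23 cells also received 100 ng/ml of LPS for 3 h. The study describes JSH-23 as a pre-treatment given ahead of LPS. Each of the 4 groups had 3 libraries described as biological replicates, numbered 4 to 6 in WT and WTL and 1 to 3 in the JSH-23 groups, so the inhibitor and the set of replicate numbers cannot be told apart. The labels do not mention a solvent control for JSH-23.

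Many cytokine mRNAs are short-lived because proteins bind their 3′ untranslated regions (3′ UTRs) and bring in decay enzymes. The Zfp36 family, which comprises tristetraprolin (Zfp36) and its relatives Zfp36l1 and Zfp36l2, binds AU-rich elements and recruits the CCR4-NOT complex, which shortens the poly(A) tail. Regnase-1 (Zc3h12a) and Regnase-3 (Zc3h12c) are endonucleases that cut stem-loops in mRNAs such as that of Il6, and the Roquins (Rc3h1 and Rc3h2) bind stem-loops and also recruit CCR4-NOT. Cnot1 is the scaffold of CCR4-NOT. HuR (Elavl1) binds AU-rich mRNAs too, but is best known for stabilising them. Several of these regulators are themselves induced by inflammatory signals and act as feedback on cytokine output. The data are mRNA levels, and neither protein amounts nor mRNA half-lives were measured.

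In the GENCODE M21 annotation of GRCm38 (mm10), the 9 are protein-coding genes on 8 chromosomes. The Zfp36 family lies with Zfp36 at chr7:28376784-28380253 (minus strand), Zfp36l1 at chr12:80107754-80113013 (minus strand) and Zfp36l2 at chr17:84183931-84187947 (minus strand). The endonuclease genes are Zc3h12a at chr4:125118423-125127840 (minus strand) and Zc3h12c at chr9:52111344-52168572 (minus strand), and the Roquin genes Rc3h1 at chr1:160906418-160974978 (plus strand) and Rc3h2 at chr2:37370069-37422903 (minus strand). Elavl1 at chr8:4285382-4325413 (minus strand) and Cnot1 at chr8:95719451-95807464 (minus strand) share a chromosome.

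Library depth ran from 24664724 to 34837847 expected counts, and the ranges of the 4 groups overlapped. Each regulator had at least 734 expected counts in every library. Of 10 dendritic cell markers 9 had a mean of at least 1 TPM (a level per transcript length, scaled to one total per library), with Itgax, which encodes CD11c, at mean levels between 242.7 and 316.7 TPM in the 4 groups, while Cd209a was at most 0.50 TPM in any library. All 10 macrophage markers were also present. Their summed level was 16458 to 17268 TPM in WT, 11717 to 12301 in WTL, 13408 to 13671 in WT + JSH23 and 10579 to 10775 in WTL + JSH23, and Lyz2, a lysozyme gene, made up 87.9% to 89.4% of it in every library. The sum of the other 9 was 1827 to 1892 TPM in WT, 1243 to 1355 in WTL, 1543 to 1601 in WT + JSH23 and 1240 to 1282 in WTL + JSH23. Of the 10 markers, 9 had a lower mean with LPS, Mertk being the exception. With JSH-23 alone 6 were lower and 4 higher, among the latter Cd68 (from 307.2 to 378.7 TPM). These counts are on TPM and include the general shift of that scale. On the log2(TPM + 1) scale the median log2 fold change of all genes tested was -0.26 with LPS and -0.01 with JSH-23 alone. The part of the marker differences in the results for the regulators was not tested. Of 10 neutrophil markers 6 had a mean of at least 1 TPM, among them S100a9 at means between 76.05 and 100.5 TPM in the 4 groups. The summed level of all 10 was between 171.8 and 225.8 TPM, and Ly6g had a mean of at most 0.41 TPM. Markers of B cells, T or NK cells and of mast cells, basophils or eosinophils (15 genes) were near 0, with at most 3.27 TPM for any of these 3 lists in a library. When the libraries were projected on principal components of log2 CPM, WTL + JSH23 replicate 3 lay apart from its group on the second component (22.6% of the variance), at -40.3 beside -29.5 and -27.5. Without this library 8 regulators in place of 7 passed for LPS in the presence of JSH-23, and 5 in place of 3 for the difference between the LPS responses with and without the inhibitor, while the other 3 comparisons kept their number of calls. In bulk RNA, fewer cells of a type and less RNA per cell cannot be told apart.

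Before treatment, the Zfp36 family was the most abundant class of regulator. Mean levels in WT, from the deposited TPM, were 250.7 for Zfp36l1, 201.4 for Zfp36, 62.9 for Cnot1, 62.4 for Zfp36l2, 42.7 for Elavl1, 25.2 for Zc3h12c, 23.7 for Zc3h12a, 13.98 for Rc3h2 and 9.67 for Rc3h1 (n = 3). In this order Cnot1 and Zfp36l2 had overlapping library ranges and all other neighbours were separate. With LPS the order became Zfp36 (169.7 TPM), Zc3h12a (106.0), Zfp36l1 (74.9), Cnot1 (54.8), Elavl1 (49.7), Zc3h12c (36.8), Zfp36l2 (12.5), Rc3h1 (11.9) and Rc3h2 (11.3). Here the ranges of Cnot1 and Elavl1 overlapped, as did those of Zfp36l2, Rc3h1 and Rc3h2 from one to the next. Zc3h12a moved from the seventh to the second place and Zfp36l2 from the fourth to the seventh. In WT + JSH23 Zfp36 stood above Zfp36l1 (213.7 against 172.0 TPM, no overlap), the reverse of WT. In WTL + JSH23 Zfp36 again led with 179.7 TPM, followed by Zc3h12a (83.6) and Zfp36l1 (81.0), whose ranges overlapped.

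**Figure D1:**
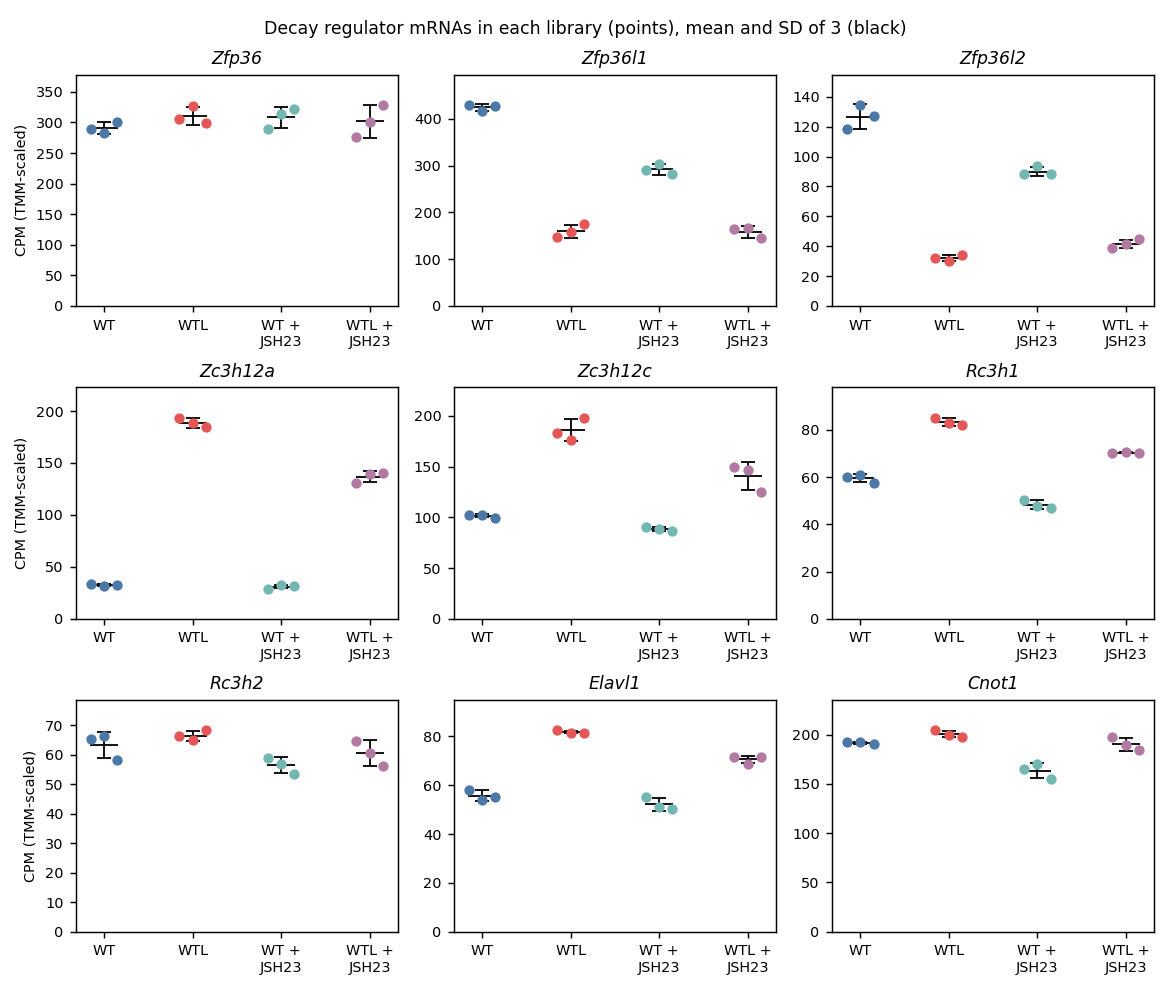
Counts over TMM-scaled library size (CPM) of the 9 decay regulators in the 12 libraries; coloured points are libraries, the black bar is the mean and the whiskers are the SD of 3 libraries, and each vertical axis starts at 0. Zfp36l1 and Zfp36l2 lie lower with LPS, Zc3h12a goes from a mean of 32.5 to 188.9 CPM, and the libraries of Zfp36 overlap between groups.

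To see how LPS changed the regulators, WTL was compared with WT. Of the 9 genes, 4 rose (Zc3h12a, Zc3h12c, Elavl1 and Rc3h1), against 31.0% of all genes tested, and 2 fell (Zfp36l1 and Zfp36l2), against 34.7%. Passing means an adjusted p under 0.05 in edgeR's quasi-likelihood test. With a change of more than 2-fold, 1 regulator rose (Zc3h12a; 7.36% of all genes did) and 2 fell (Zfp36l1 and Zfp36l2; 9.09%). The median log2 fold change of the 9 was 0.10 beside -0.05 over all genes. The calls of the 3 other genes depended on the scaling. DESeq2 with its own scaling called 6 regulators higher and 2 lower, adding Zfp36 (0.13; adjusted p = 0.0332) and Cnot1 (0.10; adjusted p = 0.0255) as higher. With scaling by library totals all 9 passed, 4 higher and 5 lower, and Zfp36, Rc3h2 and Cnot1 were then lower. With these totals 14.7% of all genes were higher and 59.9% lower. The log2(TPM + 1) scale also gave 4 higher and 5 lower, against 13.3% and 54.3% of all genes.

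Among the Zfp36 family, Zfp36l2 and Zfp36l1 fell with LPS. Zfp36l2, at 118.3, 134.7 and 127.3 CPM in WT, was at 32.0, 30.2 and 33.8 CPM in WTL. Every WTL library was far below every WT library, a log2 fold change of -1.99 ± 0.058 (SE; 3.97-fold lower; adjusted p = 1.57e-17). Zfp36l1 was at 430.2, 416.7 and 427.8 CPM in WT and at 146.4, 157.9 and 174.6 CPM in WTL. Again the groups did not overlap, and the log2 fold change was -1.41 ± 0.056 (2.67-fold lower; adjusted p = 3.07e-15). Zfp36, the founding member, was at 289.1, 283.0 and 300.8 CPM in WT and at 304.9, 327.6 and 299.6 CPM in WTL. The groups overlapped by 1 library each, and the log2 fold change of 0.10 ± 0.054 did not pass (adjusted p = 0.126); its direction turned to -0.23 when libraries were scaled by their totals and to -0.25 on the log2(TPM + 1) scale, and both of these passed as lower (adjusted p = 0.000334 in edgeR and 0.00192 in limma).

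Each member of the family carries a copy of the AU-rich nonamer TTATTTATT, the preferred binding site of these proteins, in its own 3′ UTR. The sites are shown because the family recognises this element in targets, of which Tnf and Cxcl1, which hold it, are given beside them. Not all targets do: of 17 target 3′ UTRs examined 6 (35.3%) held the nonamer, and that of Il6 did not. Capitals mark the nonamer, including overlapping copies. Sequences are the sense strand, 5′ to 3′, from GENCODE transcripts on GRCm38 (mm10), and each lies in the 3′ UTR of the principal transcript.
Zfp36, chr7:28376951-28376979, minus strand: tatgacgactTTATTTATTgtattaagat
Zfp36l1, chr12:80108167-80108195, minus strand: aactgttggaTTATTTATTttagaaattc
Zfp36l2, chr17:84184914-84184942, minus strand: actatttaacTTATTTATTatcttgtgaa
Tnf, chr17:35199689-35199717, minus strand: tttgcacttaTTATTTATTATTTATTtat
Cxcl1, chr5:90892615-90892643, plus strand: atttatgtatTTATTTATTccacaaagtg
The nonamer was present in 7.19% of 21005 3′ UTRs. In UTRs of a length between 80% and 120% of that of the gene in question, it was present in 4.19% for Zfp36, 9.94% for Zfp36l1 and 9.92% for Zfp36l2. The core heptamer TATTTAT occurred 3 times in each of the 3 UTRs. A match describes the letters and does not show that the site is bound.

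Because shares within a library do not depend on scaling between libraries, the make-up of the family was also computed from TPM. Zfp36 made up 39.1%, 38.5% and 39.8% of the summed Zfp36 family TPM in the WT libraries and 67.3%, 67.5% and 63.3% in the WTL libraries. The mean share was 26.9 percentage points higher with no overlap, while that of Zfp36l1 went from 48.7% ± 0.73 to 29.1% ± 2.17 and that of Zfp36l2 from 12.1% ± 0.85 to 4.88% ± 0.35 (SD, n = 3). The exact two-sided permutation test gave p = 0.10 for each of these differences, the smallest that 3 against 3 libraries allow, and 0.156 after Benjamini-Hochberg adjustment over 28 share comparisons. The family's total was 514.5 ± 10.8 TPM in WT and 257.0 ± 9.94 TPM in WTL. Unlike the shares, this total depends on the scaling between libraries. With LPS the median log2 fold change of all genes was -0.26 on the log2(TPM + 1) scale and -0.05 in the main fit.

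**Figure D2:**
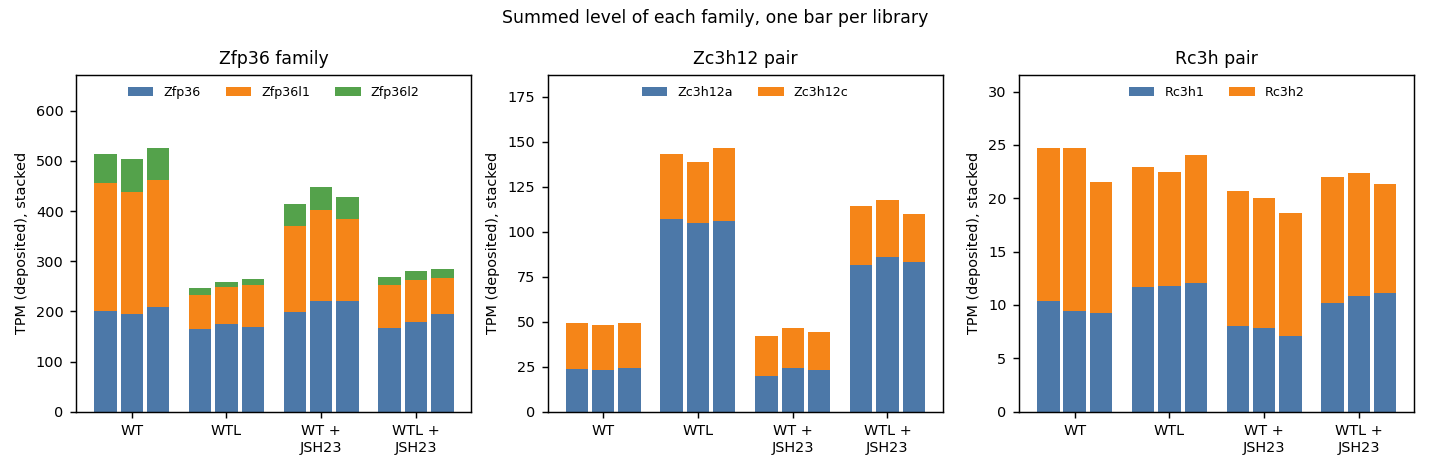
Stacked deposited TPM of the Zfp36 family, the Zc3h12 pair and the Rc3h pair, one bar per library in the order of the replicate numbers, with axes from 0. The Zfp36 family total is 514.5 TPM on average in WT and 257.0 in WTL with Zfp36 segments of 201.4 and 169.7, and the Zc3h12 pair goes from 48.9 to 142.7 TPM. Heights depend on the scaling, and in TMM-scaled CPM Zfp36 had means of 291 in WT and 310.7 in WTL.

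The endonucleases rose. Zc3h12a (Regnase-1) was at 33.9, 31.3 and 32.5 CPM in WT and at 193.7, 188.6 and 184.3 CPM in WTL. All WTL libraries were several times above all WT libraries, with a log2 fold change of 2.54 ± 0.048 (5.81-fold; adjusted p = 1.22e-20), the largest of the 9. Zc3h12c (Regnase-3) was at 102.6, 102.0 and 99.8 CPM in WT and at 183.6, 176.5 and 198.4 CPM in WTL. The groups were separate and the log2 fold change was 0.87 ± 0.055 (1.83-fold; adjusted p = 8.48e-12). Per transcript length the genes were nearly level in WT, where Zc3h12a made up 48.5% ± 0.83 of their summed TPM, and Zc3h12a made up 74.3% ± 1.49 in WTL. Neither 3′ UTR holds the nonamer, in 856 bases for Zc3h12a and 4062 bases for Zc3h12c.

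The promoter windows of these induced endonucleases and of the repressed Zfp36l1 are shown because the inhibitor acts on a transcription factor. They run from 250 bases before to 50 bases after the annotated start, 5′ to 3′ on the gene's strand, from RefSeq on GRCm38.p6. Of the 9 genes, 7 had a window, and Zc3h12c had a pair of them, of which the upstream one is shown. Capitals mark matches on either strand to the NF-κB consensus, to TGANTCA (the AP-1 site), to TATAAA and to GGGCGG (the GC box).
Zc3h12a, chr4:125127832-125128131, minus strand: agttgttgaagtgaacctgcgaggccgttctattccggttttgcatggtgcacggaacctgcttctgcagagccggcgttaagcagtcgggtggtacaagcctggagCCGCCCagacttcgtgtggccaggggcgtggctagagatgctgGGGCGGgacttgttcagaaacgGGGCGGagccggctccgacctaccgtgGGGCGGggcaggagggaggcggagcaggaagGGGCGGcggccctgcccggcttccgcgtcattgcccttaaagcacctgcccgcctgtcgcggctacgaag
Zc3h12c, chr9:52168357-52168656, minus strand: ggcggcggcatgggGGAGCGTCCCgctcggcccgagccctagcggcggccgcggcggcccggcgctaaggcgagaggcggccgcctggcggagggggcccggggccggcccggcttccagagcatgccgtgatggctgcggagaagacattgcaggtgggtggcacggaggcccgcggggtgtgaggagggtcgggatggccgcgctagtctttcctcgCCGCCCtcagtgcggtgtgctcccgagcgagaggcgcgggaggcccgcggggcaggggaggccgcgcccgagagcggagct
Zfp36l1, chr12:80112964-80113263, minus strand: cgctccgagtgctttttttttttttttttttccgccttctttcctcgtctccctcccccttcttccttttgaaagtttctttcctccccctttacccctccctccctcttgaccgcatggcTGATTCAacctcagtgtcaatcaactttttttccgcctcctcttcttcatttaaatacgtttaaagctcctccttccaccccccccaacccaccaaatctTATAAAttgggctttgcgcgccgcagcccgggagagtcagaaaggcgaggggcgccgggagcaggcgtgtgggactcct
The Zc3h12c window holds 1 NF-κB match, from 236 to 227 bases before the start, and 8.46% of 32851 windows hold at least 1. The Zc3h12a window holds 5 GC boxes (35.66% of windows hold at least 1) and no NF-κB match in these letters. In the Zfp36l1 window a TATAAA (13.62% of windows) lies from 29 to 24 bases before the start, and an AP-1 match (7.81%) from 129 to 123 bases before it. Of the 8 windows of the regulators, 1 holds an NF-κB match, 2 an AP-1 match, 1 a TATAAA and 4 a GC box. Rc3h1, which rose, has an AP-1 match from 133 to 127 bases before its start and 6 GC boxes. The other Zc3h12c window holds none of these motifs. These matches describe the sequence, and whether any is bound or acts on the gene was not tested.

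Of the Roquins, Rc3h1 passed and Rc3h2 did not. Rc3h1 was at 60.1, 60.9 and 57.5 CPM in WT and at 85.2, 82.8 and 82.1 CPM in WTL. It rose by a log2 fold change of 0.49 ± 0.042 (1.40-fold; adjusted p = 1.34e-09) with no overlap. Rc3h2 was at 65.4, 66.3 and 58.1 CPM in WT and at 66.3, 64.8 and 68.2 CPM in WTL, groups that overlapped. Its log2 fold change of 0.07 ± 0.056 did not pass (adjusted p = 0.300) and turned to -0.26 with scaling by library totals (adjusted p = 0.000408), to -0.28 on the log2(TPM + 1) scale (limma, adjusted p = 0.0114) and to -0.01 with upper quartile scaling. The first 2 of these passed as lower. Rc3h1 made up 41.0% ± 2.44 of the pair's TPM in WT and 51.3% ± 1.27 in WTL (exact permutation p = 0.10, the smallest possible), while the summed level was 23.7 ± 1.80 TPM and 23.2 ± 0.81 TPM.

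Elavl1, the stabiliser, rose and Cnot1, the scaffold of the deadenylase, did not pass. Elavl1 was at 58.1, 53.95 and 55.2 CPM in WT and at 82.4, 81.4 and 81.4 CPM in WTL, separate groups with a log2 fold change of 0.55 ± 0.045 (1.47-fold; adjusted p = 5.78e-10). Its 3′ UTR of 4218 bases holds 8 nonamers, all between bases 3794 and 3848, in contrast to a single copy in the family above, and 18.3% of UTRs of similar length hold at least 1. The first 4, which overlap, are shown with capitals for the nonamers because no other of the 9 UTRs holds more than 1, and beside them the single nonamers of the Roquins. Of UTRs as long as those of the Roquins, 28.7% for Rc3h1 and 22.3% for Rc3h2 hold the nonamer.
Elavl1, chr8:4285778-4285807, minus strand: aTTATTTATTTATTTATTTATTtttattta
Rc3h1, chr1:160970043-160970071, plus strand: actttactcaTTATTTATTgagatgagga
Rc3h2, chr2:37373287-37373315, minus strand: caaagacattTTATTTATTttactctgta
In all, 6 of the 9 regulators hold the nonamer, among them Zfp36l1 and Zfp36l2, which fell, and Rc3h1 and Elavl1, which rose. Cnot1 was at 192.2, 192.8 and 190.4 CPM in WT and at 204.3, 200.02 and 197.8 CPM in WTL. These groups did not overlap, but the log2 fold change of 0.07 ± 0.039 did not pass (adjusted p = 0.146), and it turned to -0.26 with scaling by library totals (adjusted p = 5.61e-06), -0.20 on the log2(TPM + 1) scale (limma, adjusted p = 0.039) and -0.02 with upper quartile scaling. The first 2 of these passed as lower. Elavl1 overlaps the coding gene Ccl25 on the other strand, which had 91 to 176 expected counts per library against 1409 to 2443 for Elavl1. The kit named in the labels and that in the methods differ in strand, so reads of such partners cannot be told apart here.

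The scaling of libraries mattered for the small changes. With library totals in place of TMM factors, the median log2 fold change of all genes with LPS moved from -0.05 to -0.38, and with upper quartile scaling to -0.13. On the log2(TPM + 1) scale it was -0.26. Relative to this median, Zfp36 was higher by 0.14, Rc3h2 by 0.11 and Cnot1 by 0.11 on the log2 scale in the main fit, and by 0.14, 0.12 and 0.11 with library totals. On the log2(TPM + 1) scale these differences from the median were 0.01, -0.02 and 0.06. The rises and falls of the other 6 kept their direction under the scalings tried.

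**Figure D3:**
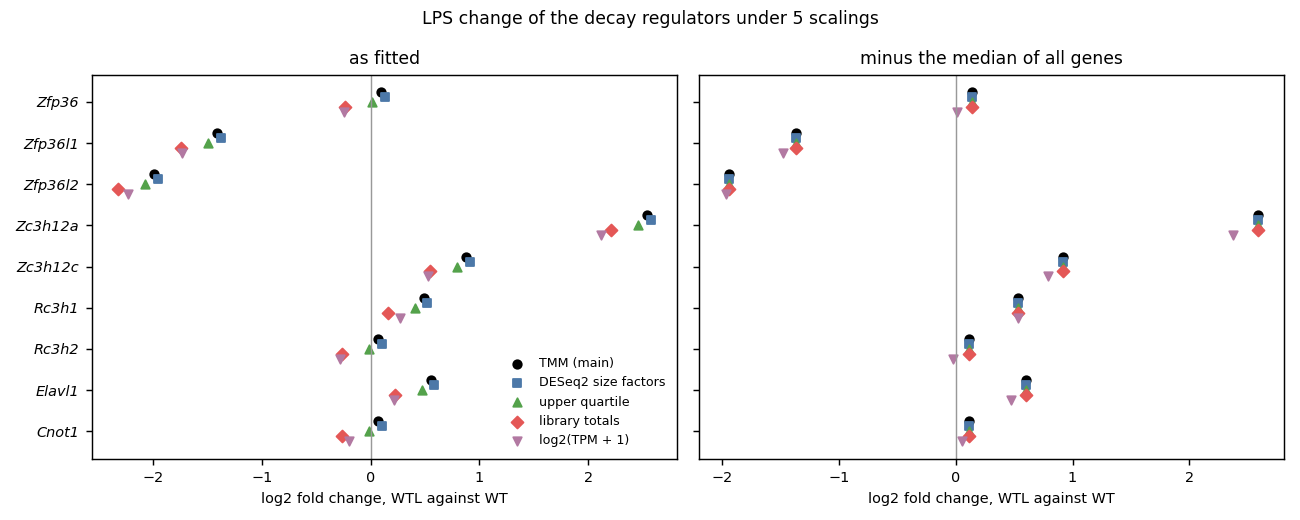
Log2 fold change with LPS (WTL against WT) of the 9 regulators under 5 scalings, as fitted (left) and after subtracting the median of all genes tested under the same scaling (right). Zfp36, Rc3h2 and Cnot1 lie on either side of 0 at the left, where library totals give -0.23, -0.26 and -0.26, whereas the main fit and library totals coincide at the right.

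RNA libraries do not show where RelA was in the cells. To ask how the regulators responded to LPS in the presence of JSH-23, WTL + JSH23 was compared with WT + JSH23. Here 5 of the 9 rose (27.4% of all genes did) and 2 fell (27.1%). Zc3h12a was the 1 regulator that rose more than 2-fold (5.85% of all genes), and Zfp36l2 the 1 that fell more than 2-fold (4.49%). Zc3h12a went from 29.01, 32.1 and 31.6 CPM to 130.5, 139.1 and 140.5 CPM, a log2 fold change of 2.15 ± 0.049 (4.43-fold; adjusted p = 4.84e-19). Zfp36l2 went from 88.3, 93.4 and 88.0 CPM to 38.9, 41.1 and 44.6 CPM, or -1.12 ± 0.057 (2.17-fold lower; adjusted p = 4.10e-13). Both were separated between the groups without overlap.

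Zfp36l1 also fell with LPS in the presence of the inhibitor, by a log2 fold change of -0.88 ± 0.056 (1.84-fold lower; adjusted p = 1.68e-11), from 290.4, 304.3 and 281.9 CPM to 164.5, 166.7 and 144.5 CPM. Zc3h12c (0.67 ± 0.056), Rc3h1 (0.54 ± 0.043), Elavl1 (0.43 ± 0.046) and Cnot1 (0.22 ± 0.040; adjusted p = 6.97e-05) rose. Cnot1 turned to -0.02 with scaling by library totals and was at 0.01 on the log2(TPM + 1) scale. Zfp36 (-0.03 ± 0.054) and Rc3h2 (0.10 ± 0.057) did not pass. Zfp36 passed as lower with library totals (-0.27; adjusted p = 9.88e-05) and on the log2(TPM + 1) scale (-0.25; limma, adjusted p = 0.00247). Rc3h2 turned to -0.13 with library totals (adjusted p = 0.0532) and passed as higher (0.15; adjusted p = 0.0261) without WTL + JSH23 replicate 3. With library totals 4 regulators were higher and 3 lower, against 14.0% and 52.9% of all genes. The Zfp36 share of its family went from 49.7% ± 1.76 to 64.5% ± 3.03 (exact permutation p = 0.10, the smallest possible).

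Whether JSH-23 changed the LPS response was tested by the interaction, that is, the log2 fold change of WTL + JSH23 over WT + JSH23 less that of WTL over WT. A positive value passed for 2 regulators (9.54% of all genes) and a negative one for 1 (8.44%). Zfp36l2 fell less with the inhibitor, by 0.87 ± 0.081 on the log2 scale (adjusted p = 3.13e-07), and Zfp36l1 by 0.53 ± 0.079 (adjusted p = 6.98e-05). Zc3h12a rose less, with an interaction of -0.39 ± 0.068 (adjusted p = 0.000344), which did not pass on the log2(TPM + 1) scale (-0.25; adjusted p = 0.0892). No regulator's interaction exceeded 2-fold, as 0.933% of all genes did upward and 0.404% downward.

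The levels behind these differences were not alike. For Zfp36l1 the levels with LPS were close, at a mean of 159.6 CPM without and 158.6 CPM with the inhibitor, and the starting levels differed, at 424.9 and 292.2 CPM. Zfp36l2 differed at both ends, from 126.7 to 89.9 CPM before LPS and from 32.0 to 41.5 CPM with it. For Zc3h12a the starting levels were 32.5 and 30.9 CPM and the levels with LPS were 188.9 and 136.7 CPM. The interactions of Cnot1 (0.16 ± 0.056; adjusted p = 0.0586) and Zc3h12c (-0.20 ± 0.078; adjusted p = 0.0763, 0.0291 with DESeq2) did not pass. That of Cnot1 passed with library totals (0.25; adjusted p = 0.00405), where 17.4% of all genes had a positive and 4.53% a negative interaction, and without WTL + JSH23 replicate 3 (0.18; adjusted p = 0.0237). The interactions of Zfp36 (-0.13), Elavl1 (-0.12), Rc3h1 (0.06) and Rc3h2 (0.04) did not pass, and Zfp36 passed without that library (-0.19; adjusted p = 0.0403).

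**Figure D4:**
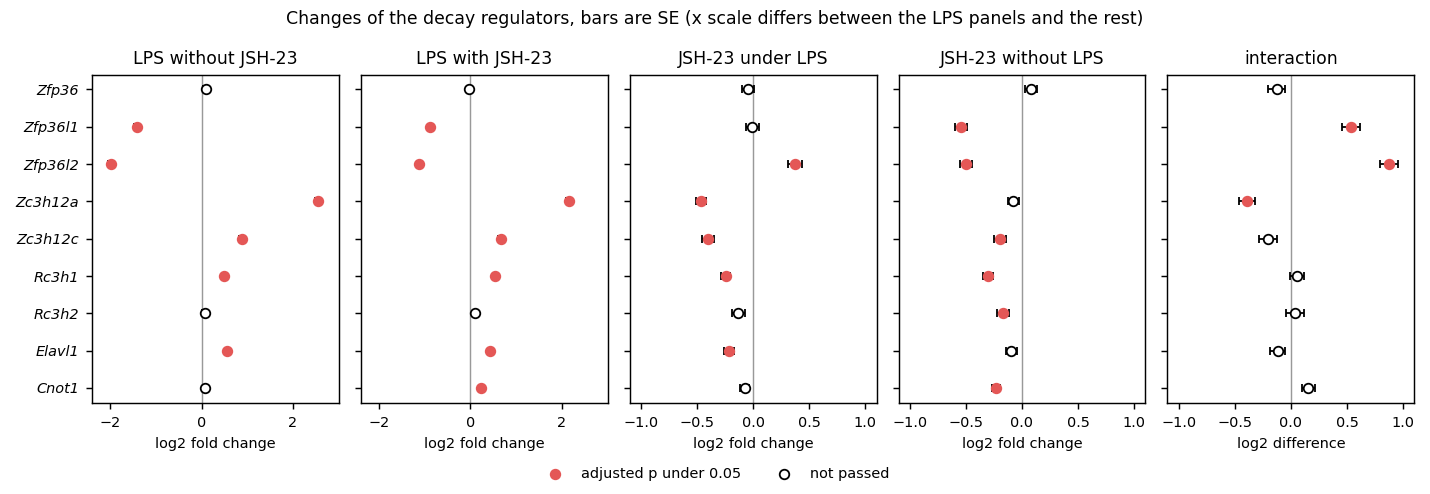
Log2 fold changes of the 9 regulators in the 4 pairwise comparisons and the interaction; points are estimates of the fit over all 12 libraries, whiskers are the SE, filled points passed an adjusted p of 0.05, and the LPS panels have a wider axis than the rest. With LPS the changes run from -1.99 for Zfp36l2 to 2.54 for Zc3h12a, and 3 interactions are filled, those of Zfp36l1, Zfp36l2 and Zc3h12a.

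The effect of the inhibitor itself was read from the comparison at each LPS state. These comparisons share libraries with those above, so each gene's values are given side by side as they are. Under LPS (WTL + JSH23 against WTL), 1 regulator was higher with JSH-23 (24.5% of all genes) and 4 were lower (24.2%). None of the 9 exceeded 2-fold in either direction, which 3.75% of all genes did upward and 3.25% downward. The gene that was higher was Zfp36l2, by 0.38 ± 0.063 on the log2 scale (adjusted p = 3.35e-05). Zc3h12a (-0.47 ± 0.043), Zc3h12c (-0.40 ± 0.055), Rc3h1 (-0.24 ± 0.042) and Elavl1 (-0.21 ± 0.045) were lower. Library totals left Elavl1 at -0.08 (adjusted p = 0.133), and on the log2(TPM + 1) scale neither Elavl1 (adjusted p = 0.239) nor Rc3h1 (adjusted p = 0.149) passed. Zfp36 (-0.04), Zfp36l1 (-0.01), Rc3h2 (-0.13; adjusted p = 0.0648, 0.0293 with DESeq2) and Cnot1 (-0.08; 0.0387 with DESeq2) did not pass, and with library totals Zfp36, Zfp36l1 and Cnot1 turned positive (0.08, 0.12 and 0.05).

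Without LPS (WT + JSH23 against WT), 6 of the 9 were lower with JSH-23 (22.1% of all genes) and 0 were higher (18.8%). None exceeded 2-fold, against 2.43% of all genes upward and 2.94% downward. Zfp36l1 (-0.54 ± 0.054; adjusted p = 4.50e-08) and Zfp36l2 (-0.50 ± 0.052; adjusted p = 9.06e-08) moved the most. Rc3h1 (-0.30 ± 0.043), Cnot1 (-0.23 ± 0.039), Zc3h12c (-0.20 ± 0.056) and Rc3h2 (-0.17 ± 0.056; adjusted p = 0.0205) followed, the last with groups that overlapped. On the log2(TPM + 1) scale Zc3h12c, Rc3h2 and Cnot1 did not pass (adjusted p = 0.0747, 0.125 and 0.0977). Zfp36 (0.08 ± 0.054), Zc3h12a (-0.08 ± 0.052) and Elavl1 (-0.09 ± 0.046) did not pass. The Zfp36 share of its family was thus 49.7% in WT + JSH23 against 39.1% in WT (exact permutation p = 0.10).

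The genes most like each of the strongly changed regulators were found among 7694 protein-coding genes with a mean of at least 10 CPM, by the root mean square difference of centred log2 CPM over the 12 libraries. For Zfp36l1 they were Arrb1 (0.052), which encodes β-arrestin 1, Vps9d1 (0.070) and Elmsan1 (0.077). Arrb1 went from 356.8 to 141.8 CPM with LPS and from 254.1 to 137.1 CPM in the presence of JSH-23. For Zfp36l2 they were Il6st (0.079), which encodes the gp130 receptor subunit, Otulinl (0.118) and Mxd4 (0.143), and for Zc3h12a they were Slc22a21 (0.102), Itgav (0.106) and Plek (0.114). Il6st ran from 342.5 down to 92.0 CPM in the absence and from 230.4 down to 114.6 CPM in the presence of the inhibitor. The likeness is a description over 12 libraries that share their treatments.

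The rest of the decay machinery was examined with lists for each step, whose counts stand beside the 31.0% of all genes that rose and the 34.7% that fell with LPS. Of 7 other AU-rich element binding proteins tested, 3 rose and 2 fell with LPS. Tia1, a repressor of translation, fell by a log2 fold change of -0.75 ± 0.058 and Pcbp1 rose by 0.48 ± 0.037. Of 17 CCR4-NOT and PAN deadenylase genes with their BTG/TOB adaptors, 6 rose and 7 fell, with a median of -0.09 beside -0.05 for all genes. Tob1, an adaptor of the deadenylase, rose by 0.69 ± 0.059, and Cnot6l, a catalytic subunit, fell (-0.63 ± 0.052).

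Of 21 decapping and 5′ to 3′ decay genes, 9 rose and 2 fell, among them Lsm14a (0.46 ± 0.044) and the decapping enzyme Dcp2 (0.45 ± 0.042) upward. Of 14 exosome and SKI complex genes, 3 rose and 5 fell, with Dis3l (-0.50 ± 0.067) and Ttc37 (-0.49 ± 0.078) named by the rule. Of 5 genes tested in the list of other PIN or NYN domain genes, which includes Upf1, 1 rose and 2 fell. The nonsense-mediated decay endonuclease Smg6 was at -0.90 ± 0.068 and N4bp1 at 0.36 ± 0.045. None of the deadenylation, decapping and endonuclease genes exceeded 2-fold, and 1 exosome gene did so downward.

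The genes listed as upstream regulators and the targets moved more. Of 14 genes in the list of regulators of the decay proteins, 9 rose and 4 fell. Whether each of them acts on a decay protein was not tested. Malt1, the protease that cleaves Regnase-1 and Roquin-1, went from 253.3 ± 9.95 to 1119 ± 30.0 CPM (log2 fold change 2.14 ± 0.047; adjusted p = 1.48e-19). Ptpn22, a phosphatase of lymphoid and myeloid cells, went from 14.2 ± 1.21 to 1.88 ± 0.19 CPM (-2.91 ± 0.124). Of 16 cytokine and feedback mRNAs known as targets, 15 rose, 14 of them more than 2-fold, with a median log2 fold change of 4.97. Cxcl1 rose by 6.99 ± 0.087 and Il6 by 5.93 ± 0.085, and Tnfrsf4 (0.02) did not pass. In the presence of JSH-23, LPS also raised 15 of the 16, 14 of them more than 2-fold, with a median of 4.60.

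**Figure D5:**
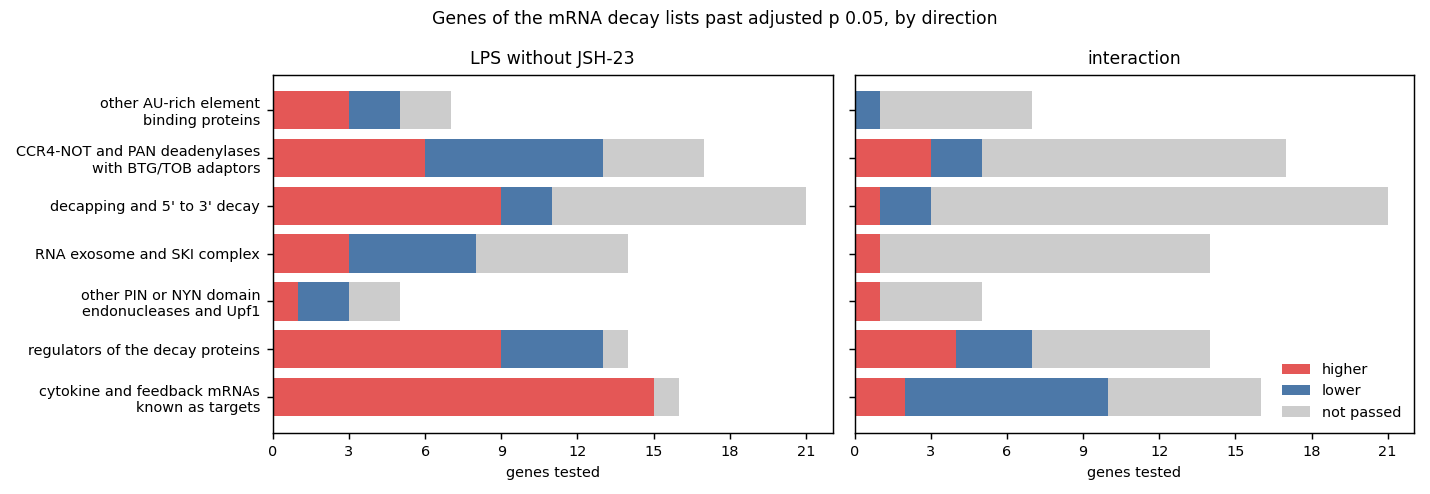
Number of genes past an adjusted p of 0.05 in each mRNA decay list, higher in red, lower in blue and not passed in grey, for LPS without JSH-23 (left) and for the interaction (right). Of the target mRNAs 15 of 16 rose with LPS, and in the interaction 8 were lower and 2 higher.

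In the interaction, where 9.54% of all genes were higher and 8.44% lower, 3 of the 17 deadenylation genes were higher and 2 lower, with Btg2 at -0.43 ± 0.069 and Tob1 at -0.33 ± 0.083. Among the 21 decapping genes 1 was higher and 2 lower, with Dcp2 at -0.29 ± 0.061 and Edc4 at 0.20 ± 0.066. Of the AU-rich element binding proteins Pcbp1 alone passed (-0.16 ± 0.052) and Smg6 passed among the endonucleases (0.32 ± 0.098). Of the 14 exosome genes Exosc7 was higher (0.54 ± 0.140; adjusted p = 0.00932).

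Of the 14 genes listed as upstream regulators 4 were higher and 3 lower in the interaction. The p38 kinase gene Mapk14, whose pathway inactivates the protein product of Zfp36, fell with LPS in both states. Its log2 fold change was -0.79 ± 0.051 without and -0.16 ± 0.052 with the inhibitor, a difference of 0.63 ± 0.073 (adjusted p = 4.58e-06). Before LPS, Mapk14 was at a mean of 88.6 CPM without and 62.2 CPM with JSH-23. With LPS it was at 51.2 and 55.5 CPM, and this effect of JSH-23 did not pass (adjusted p = 0.0728). Ptpn22 differed by 0.73 ± 0.213 (adjusted p = 0.0210). Of the 16 targets, 8 had a negative and 2 a positive interaction. Il12b (-1.92 ± 0.106) and Il6 (-1.21 ± 0.106) had the largest of these differences. The levels of Il12b differed at both ends. Before LPS it was at 113.5 ± 5.58 CPM without and 275 ± 30.1 CPM with the inhibitor. With LPS it was at 2696 ± 268.2 CPM without and 1730 ± 153.9 CPM with the inhibitor.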

How the data were processed

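Bulk RNA-seq of 12 BMDC libraries in 4 groups of 3 was analysed. The authors trimmed reads with Trim Galore, aligned them to mm10 with STAR (2.6.0c per the submitters' processing notes) and quantified genes with RSEM (GENCODE, release not given in the sources used here). The deposited expected counts are RSEM estimates of read pairs per gene, not normalized between libraries. The deposited TPM values were computed by the authors with RSEM, per transcript length and to one total per library. The labels name an rRNA depletion kit and the methods a poly(A) library kit, and this conflict was not settled. A solvent control for JSH-23 is not stated.

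Expected counts were rounded, filtered with filterByExpr and scaled by TMM in edgeR 4.0.16 (R 4.3.3). A quasi-likelihood model with 1 mean per group over all 12 libraries (8 residual degrees of freedom) gave the 5 comparisons, with Benjamini-Hochberg adjustment over 14357 genes. Adjusted p values without a named tool are edgeR's. SE was taken as |log2 fold change|/√F. DESeq2 1.42.0, limma 3.58.1 on log2(TPM + 1) or log2(TPM + 0.1), other scalings and filters, the fit of only the groups compared, a replicate block and leaving out each library were the alternatives. The code was tested on simulated data. P values of these fits weigh a difference between groups against the spread between these libraries within groups.

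Symbols and 3′ UTRs are from GENCODE M21, which held 55154 of the 55335 gene identifiers, and promoters from RefSeq. A 3′ UTR was that of the principal transcript, the longest where there were several. All 9 members are named, and from each of 7 lists the 2 genes with the largest passed change and at least 10 CPM in the higher group, for LPS without JSH-23 and for the interaction, plus the 3 genes most like each member changed more than 2-fold. Tnfrsf4, the single target that did not pass, Ccl25, Exosc7, the marker genes and the genes of the closing section were named outside this rule after their values were seen. The members and the lists were chosen with earlier results of these data known. The labels give no batch.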

Additional observations from a re-analysis of the deposited data

Results flagged for a closer look

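The LPS effect on 3 regulators was not the same in the presence of JSH-23 as in its absence by the interaction test in edgeR. The LPS change with the inhibitor minus the change without it was 0.87 on the log2 scale for Zfp36l2 (adjusted p = 3.13e-07) and 0.53 for Zfp36l1 (adjusted p = 6.98e-05), and -0.39 for Zc3h12a (adjusted p = 0.000344). Zfp36l2 and Zfp36l1 fell and Zc3h12a rose with LPS in both states. JSH-23 and the set of replicate numbers cannot be told apart. With 3 libraries per group, no library was tested as an outlier. WTL + JSH23 replicate 3 lay apart from its group on the second principal component, and without it the 3 differences were 0.82, 0.60 and -0.41, with 5 regulators passing.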

How the results depend on the processing

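With a 2-fold threshold added, the regulators called went from 6 to 3 for LPS, from 7 to 2 for LPS with JSH-23, and to 0 for JSH-23 under LPS, JSH-23 without LPS and the interaction (from 5, 6 and 3). With limma on log2(TPM + 1) and on log2(TPM + 0.1), 3 passed in each JSH-23 comparison. Leaving out 1 library gave 6 for LPS, 7 to 8 for LPS with JSH-23, 5 to 6 and 5 to 7 for JSH-23 under and without LPS, and 3 to 5 for the interaction, where the 5 came without WTL + JSH23 replicate 3 and added Zfp36 (-0.19) and Cnot1 (0.18). Rc3h2 without LPS no longer passed without WT replicate 4, WT replicate 5 or WT + JSH23 replicate 3 (adjusted p = 0.0898, 0.105 and 0.114). All other calls that passed were kept when 1 library was left out. Calls were gained for Rc3h2 without WTL + JSH23 replicate 3 (LPS with JSH-23), without WT replicate 6 or WTL + JSH23 replicate 1 (JSH-23 under LPS), for Elavl1 without WT + JSH23 replicate 1 (JSH-23 without LPS), and in the interaction for Zc3h12c without WTL + JSH23 replicate 1 and Cnot1 without WT + JSH23 replicate 2.

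The changes whose direction turned were of at most 0.22 in the reported fit. With library totals the LPS changes were -0.23 for Zfp36, -0.26 for Rc3h2 and -0.26 for Cnot1, those with JSH-23 were -0.13 for Rc3h2 and -0.018 for Cnot1, and JSH-23 under LPS gave 0.084 for Zfp36, 0.12 for Zfp36l1 and 0.053 for Cnot1. Of these, the 3 LPS changes passed as lower (as on both log2(TPM) scales) and the others did not. On log2(TPM + 1) these were -0.25, -0.28 and -0.20, then -0.11 for Rc3h2, and 0.0805, 0.11 and 0.027. On log2(TPM + 0.1) they were -0.25, -0.30 and -0.21, then -0.12, and 0.0809, 0.12 and 0.027. The Elavl1 interaction was 0.036 and 0.037 on these scales. Upper quartile scaling gave -0.014 for Rc3h2 and -0.016 for Cnot1 with LPS and 0.007 for Zfp36l1 under JSH-23 and LPS, and the fit of the 2 groups alone gave 0.0008 for the last. The cause was not tested beyond the shift of the median of all genes that scaling itself produces. With 1 library left out, Zfp36 ran from -0.098 to 0.032 for LPS with JSH-23 and from -0.11 to 0.022 for JSH-23 under LPS, the highest without WTL + JSH23 replicate 1, and the Rc3h2 interaction from -0.013 (without that library) to 0.093. Zfp36l1 ran from -0.066 to 0.060 for JSH-23 under LPS, being positive without WTL + JSH23 replicate 3 or WTL replicate 6.

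Samples with the same replicate number correlated by 0.014 to 0.061 in their deviations from the group means. Those with different numbers correlated by -0.0564 to 0.0355, for the most part lower. The main fit did not pair the numbers, as the correlations were weak and not every sample correlated best with its own number. Whether the numbers pair the samples was not settled. With a replicate block 5 interactions passed in place of 3, the added ones being Zc3h12c (-0.21; adjusted p = 0.0250) and Cnot1 (0.16; adjusted p = 0.0308), and 7 regulators passed for LPS in place of 6 (Zfp36, adjusted p = 0.0388). The smallest number of expected counts behind a regulator in a library was 734, for Zfp36l2.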

Other observations

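The list of regulators of the decay proteins held further changes, chosen here after their values were seen. Ikbkb, a kinase of the NF-κB pathway that also phosphorylates Regnase-1, rose with LPS by 1.27 ± 0.038 on the log2 scale and by 0.98 ± 0.038 in the presence of JSH-23. Dusp1, a phosphatase that turns off p38, was at 71.7 ± 1.69 CPM in WT and 148.7 ± 3.12 CPM in WTL, and at 123.2 ± 7.99 and 187.0 ± 13.2 CPM in the JSH-23 groups. Mapkapk2, the kinase that acts on the product of Zfp36, was at 407.3 ± 11.6 and 774.2 ± 10.7 CPM without and at 267.8 ± 5.19 and 476.3 ± 10.4 CPM with the inhibitor. Exosc7, the exosome gene that fell more than 2-fold, was at 8.17 ± 0.51 CPM in WT and 3.598 ± 0.23 CPM in WTL.

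Among the target mRNAs, Tnf and Il6 differed in their levels before LPS. Tnf was at 109.5 ± 7.40 CPM in WT and 31.3 ± 2.34 CPM in WT + JSH23, and reached 2043 ± 78 and 1235 ± 40.5 CPM with LPS, so that its interaction was positive (1.08 ± 0.075) while it was lower with the inhibitor in both states. Il6 was at 30.2 ± 2.38 CPM in WT and 46.7 ± 6.82 CPM in WT + JSH23 and reached 1845 ± 105.5 and 1230 ± 77.3 CPM, with a negative interaction.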
